A study of Mus musculus with 12 samples.

Results

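Epidermal growth factor (EGF) family genes were described in the proximal jejunum of mice with and without methotrexate. The set listed 10 genes, of which 9 had a probe set paired with that gene alone, each with 1 probe set, out of 18820 genes measured this way: the ligands Ereg, Btc, Hbegf, Tgfa, Egf and Nrg1, the receptors Egfr and Erbb2, and the feedback inhibitor Errfi1. Areg was not analysed here. The study concerned mucositis, in which chemotherapy damages the mucosa of the gut, and the Toll-like receptor TLR2, which senses bacterial lipoproteins. The 12 arrays, 1 per mouse, formed 4 groups of 3: untreated wild type (C57BL6/J), untreated TLR2 knockout (B6.129-Tlr2tm1Kir/J), and both genotypes given methotrexate, an antifolate that blocks DNA synthesis. Methotrexate was injected intraperitoneally at 40 mg per kg body weight per day for 4 days, and the mice were killed on day 7. For the untreated mice no vehicle injection and no day of sampling are recorded. A vehicle effect therefore cannot be told apart from that of the drug. The labels give no age, sex or litter.

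EGF family ligands are made as membrane-anchored precursors that are cut loose by metalloproteases, mainly of the ADAM family, and bind ErbB receptor tyrosine kinases. Egfr binds epiregulin, betacellulin, HB-EGF, TGF-alpha and EGF, whereas the neuregulins bind Erbb3 and Erbb4. Erbb2 has no known ligand of its own and pairs with the others. Ligand binding activates the Ras-MAP kinase and PI3 kinase pathways, and Errfi1, also called Mig-6, binds the active receptor kinases and shuts them down. In the gut, EGF signals support crypt proliferation and the repair of damaged epithelium.

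Signals are on the log2 scale, so a difference of 1 is a 2-fold change, and each gene is compared only with itself across arrays. The words rose and fell are kept for changes with an adjusted p under 0.05 in limma, by Benjamini-Hochberg over all 18820 genes. The ± after a change is its standard error, from the fit of 3 mice per group. Several arrays stood apart in markers of other tissues or cells. RNA of the exocrine pancreas was present in 7 of 12 arrays, with a mean over 11 acinar markers of 10.92 to 11.85, and in the other 5 it was 4.29 to 5.56. These 7 were 2 of 3 arrays in each untreated group, 1 of 3 in treated wild type and 2 of 3 in treated knockout. Replicate 1 of the treated knockout had the highest mean of the 7 neutrophil markers (7.11, against 4.94 and 5.03 in the others of its group) and the lowest of the 12 enterocyte markers (5.57, against 7.07 and 8.09). Replicate 1 of the untreated wild type was high in 7 adipocyte markers (7.47, against 5.21 and 5.20). It held the lowest Nrg1, Tgfa, Btc, Egf and Egfr values of its group, and the highest of Hbegf, Erbb2 and Errfi1. Replicate 1 of the untreated knockout was high in 8 smooth muscle markers (9.30, against 8.53 and 8.42) and 10 fibroblast markers (7.68, against 7.23 and 7.19). It held the highest Ereg, Hbegf, Nrg1, Egfr and Erbb2 values of its group, and the lowest of Tgfa, Btc and Egf. The part of these shifts in the members' values was not tested. Tlr2 itself, read by 1 probe set, lay at 4.37 to 4.65 in wild-type arrays and 4.36 to 6.18 in knockout arrays. Whether that probe set lies inside the targeted stretch could not be told, so it checks no genotype label.

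In knockout mice, methotrexate was followed by a rise of Ereg, Nrg1, Btc and Egfr and a fall of Erbb2, Hbegf and Tgfa. Ereg rose by 4.49 ± 0.29, which is 22.4-fold, and Nrg1 by 3.57 ± 0.24, which is 11.9-fold. Egf and Errfi1 did not pass the test. Thus 4 of 9 members rose and 3 fell, where 34.8% of all genes were called, 18.8% higher and 16.0% lower. The median change over the 9 members was that of Errfi1, -0.14, beside -0.02 over all genes, and its sign was not stable, with -0.40 to 0.32 leaving out 1 array (0.32 without replicate 1 of the treated knockout, 0.0245 without replicate 3 of the untreated knockout) and 0.31 with array weights. For 7 of 9 members the arrays of the groups did not overlap, which was so for 44.6% of all genes. In wild-type mice 0 of 9 members passed limma's test, where 0.0744% of all genes did, and 2 members, Ereg and Nrg1, had an unadjusted p under 0.05. The arrays of the groups overlapped there for all 9 members, and did not for 22.6% of all genes.

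Treated knockout mice differed from treated wild-type mice in 5 members, with Ereg, Nrg1, Btc and Egfr higher and Erbb2 lower, where 36.9% of all genes were called, 20.2% higher and 16.8% lower. The median difference over the 9 members was that of Egf, 1.27, which did not pass the test, beside -0.00 over all genes. It was 0.63 with pancreatic RNA as a block, and 0.68 without replicate 3 of the treated knockout. The arrays did not overlap for these 5 and Tgfa, and for 46.2% of all genes. The same 5 members passed the test of whether the methotrexate effect differed between genotypes, where 23.8% of all genes did. These comparisons share the treated knockout arrays. Without methotrexate 0 of 9 members passed limma's test between genotypes, where 0.0106% of all genes did, 1 member (Ereg) had an unadjusted p under 0.05, and only for Ereg did the arrays not overlap, as for 13.1% of all genes.

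**Figure D1:**
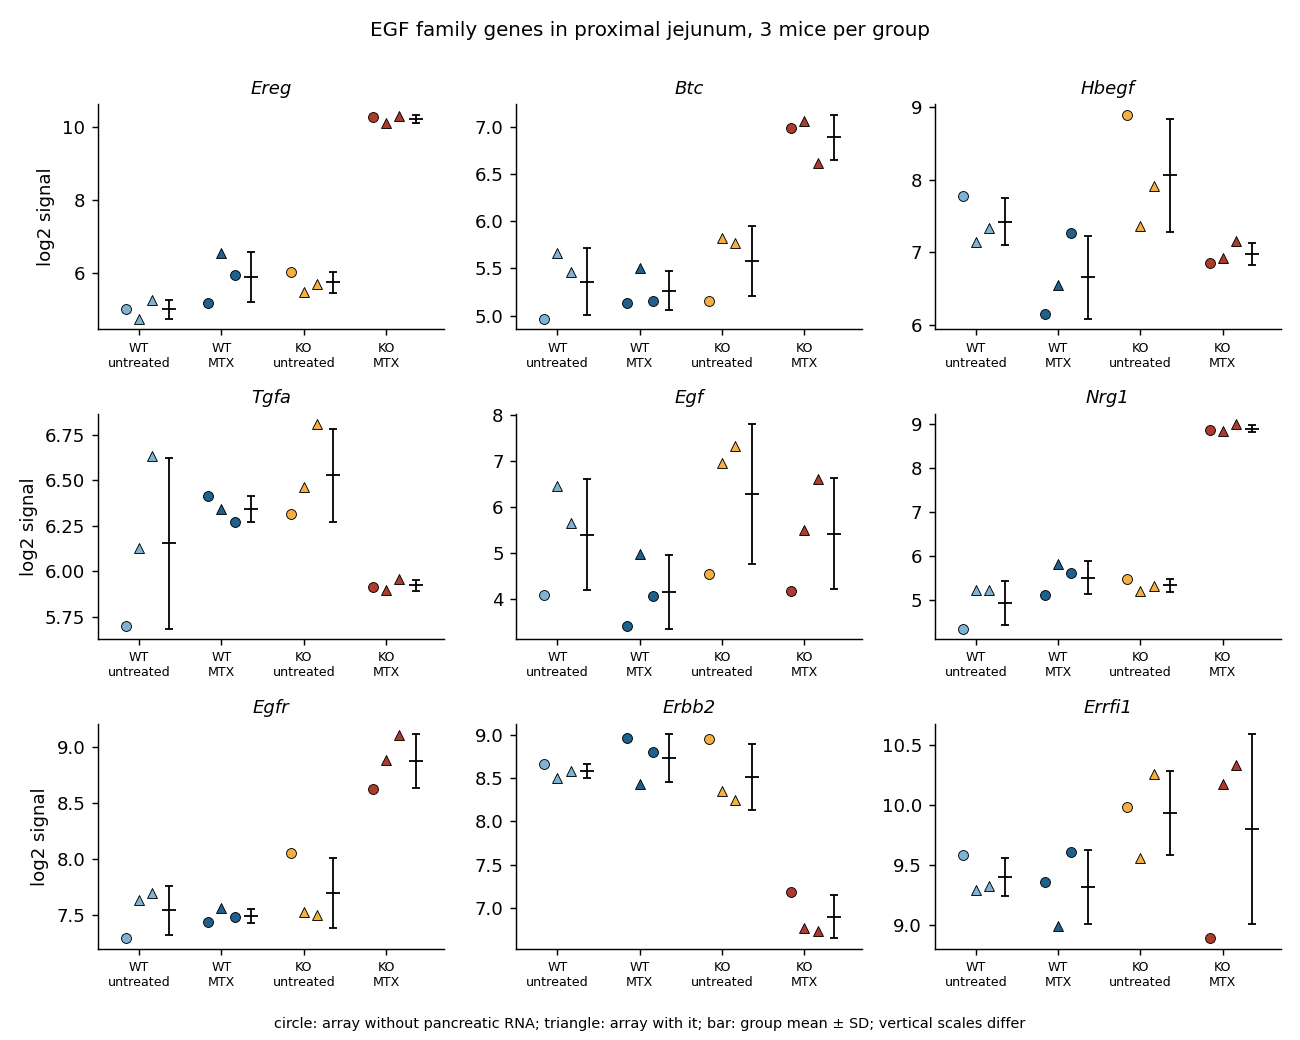
Log2 signal (vertical axis, own scale per gene) of the 9 EGF family genes in the 4 groups, with 1 point per mouse and the mean ± SD of 3 beside them; triangles mark arrays holding pancreatic RNA. Ereg at 10.11 to 10.32 and Nrg1 at 8.85 to 8.996 in treated knockout mice lie above every other array of the same gene.

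Among the Egfr ligands, Ereg (epiregulin, made by damaged epithelium and by stroma) differed most. It read 5.02, 4.76 and 5.29 in untreated wild type and 5.19, 6.57 and 5.97 in treated wild type. In knockout mice it read 6.05, 5.50 and 5.71 without the drug and 10.28, 10.11 and 10.32 with it. The treated knockout arrays stood far above all 9 others, while the treated wild-type arrays overlapped the untreated ones. The rise in knockout mice had an adjusted p of 4.72e-07 in limma's test. Treated knockout mice were 4.33 ± 0.29 above treated wild type (limma adjusted p = 4.98e-07). In wild-type mice the change was 0.89 ± 0.29 (limma adjusted p = 0.284). The test of the difference between genotypes, that is the change in knockout minus that in wild type, gave 3.60 ± 0.40 (limma adjusted p = 7.11e-05). Among untreated mice the 3 knockout arrays lay above the 3 wild-type arrays, by 0.73 ± 0.29, which did not pass (limma adjusted p = 0.786).

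Btc (betacellulin, which also binds Erbb4) read 4.97, 5.66 and 5.46 in untreated and 5.14, 5.50 and 5.15 in treated wild type. In knockout mice it read 5.16, 5.82 and 5.77 untreated and 6.99, 7.06 and 6.61 after methotrexate. Only the treated knockout arrays were above 6, and the other 3 groups overlapped each other. Btc rose by 1.30 ± 0.22 in knockout mice (2.47-fold, limma adjusted p = 0.000715) and changed by -0.10 ± 0.22 in wild type. The difference between these changes was 1.40 ± 0.31 (limma adjusted p = 0.00641). Btc was 1.62 ± 0.22 higher in treated knockout than in treated wild type. The rise in knockout mice was 1.04 among arrays with pancreatic RNA (2 against 2) and 1.83 between those without it (1 against 1). For every member, the knockout arrays without pancreatic RNA are replicate 1 of each group. These 2 arrays also stood apart in the markers given above. The split therefore cannot tell pancreatic RNA apart from those shifts.

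Ereg and Btc lie in 1 run of 4 neighbouring protein-coding genes on chromosome 5 in RefSeq's mouse assembly GRCm38.p6, in the order Epgn, Ereg, Areg and Btc. Epgn (epigen, another Egfr ligand and no member of the set) read 3.24, 3.46 and 2.83 in untreated and 4.54, 4.27 and 4.26 in treated knockout arrays. It rose by 1.18 ± 0.15 (limma adjusted p = 0.000100), and in wild type its arrays stayed between 2.98 and 3.23. Epgn was a dim probe set, with only 28.5% of genes lower in mean signal, and the deposited values do not show whether the untreated arrays lay above background, so the size of its change is uncertain. Ereg, Btc and Epgn, the measured genes of this run, all rose in knockout mice, where 18.8% of all genes did. Areg, which lies between them, was not analysed. Whether the run changed as a whole was not tested.

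Hbegf (heparin-binding EGF-like growth factor) and Tgfa (transforming growth factor alpha, an ordinary product of villus enterocytes) went the other way. Hbegf read 8.90, 7.37 and 7.92 in untreated and 6.86, 6.93 and 7.15 in treated knockout mice. In wild type it read 7.78, 7.15 and 7.34 untreated and 6.14, 6.55 and 7.27 treated. The groups did not overlap in knockout mice and did in wild type. Hbegf fell by 1.08 ± 0.36 in knockout mice (limma adjusted p = 0.0387) and changed by -0.77 ± 0.36 in wild type (limma adjusted p = 0.443), and the difference between these changes was -0.31 ± 0.52 (limma adjusted p = 0.745). The call ended on removing any single array of the treated knockout, replicate 1 or 3 of the untreated knockout, replicate 3 of the untreated or replicate 2 of the treated wild type (limma adjusted p = 0.0511 to 0.129), and without replicate 1 of the untreated knockout the change was -0.66. It was also lost in a fit of the knockout arrays alone (limma adjusted p = 0.0722). It was -0.60 among knockout arrays with pancreatic RNA and -2.04 between those without.

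Tgfa read 6.31, 6.46 and 6.81 in untreated and 5.92, 5.90 and 5.96 in treated knockout mice. In wild type it read 5.70, 6.13 and 6.63 untreated and 6.42, 6.34 and 6.27 treated. The treated knockout arrays were low and close together, and the untreated wild type, with its wide spread, reached below them. Tgfa fell by 0.60 ± 0.20 in knockout mice (limma adjusted p = 0.0363), a call that ended on removing any single array of the treated knockout, replicate 2 or 3 of the untreated knockout or replicate 2 of the untreated wild type. The limma adjusted p was then 0.0515 to 0.139, and the change was -0.46 when replicate 3 of the untreated knockout was removed. The change in wild type was 0.19 ± 0.20, treated knockout minus treated wild type was -0.42 ± 0.20 (limma adjusted p = 0.133), and the difference between genotypes was -0.79 ± 0.28 (limma adjusted p = 0.0666). Neither passed in the main fit. The first passed in 4 of 22 alternatives and the second, nearer the threshold, in 6 of 21. The treated comparison passed in limma with quantile normalisation (-0.49, adjusted p = 0.0361), with only the groups compared (adjusted p = 0.0130), with array weights (adjusted p = 0.0404) and without replicate 3 of the untreated wild type (adjusted p = 0.0464). The difference between genotypes passed in limma with pancreatic RNA as a block (-0.88, adjusted p = 0.0270), the replicate block (adjusted p = 0.0486), quantile normalisation (adjusted p = 0.0364), median centring (adjusted p = 0.0393), array weights (adjusted p = 0.00782) and without replicate 3 of the untreated wild type (-1.03, adjusted p = 0.00710). The change in knockout mice was -0.71 among arrays with pancreatic RNA and -0.40 between those without.

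Egf itself, the founding ligand, followed the pancreatic RNA. In arrays holding that RNA it read 4.98 to 7.33, and in those without it 3.40 to 4.53, so these sets of arrays did not overlap. With the groups held constant, Egf was 1.92 ± 0.26 higher in arrays with pancreatic RNA (limma adjusted p = 0.00313), where 2.65% of all genes were called. By group, Egf read 4.09, 6.45 and 5.64 in untreated and 3.40, 4.98 and 4.06 in treated wild type. It read 4.53, 6.95 and 7.33 in untreated and 4.17, 5.49 and 6.59 in treated knockout, and all groups overlapped. No contrast of Egf passed limma's test. Its change was -1.25 ± 0.84 in wild type (limma adjusted p = 0.555) and -0.85 ± 0.84 in knockout (limma adjusted p = 0.493), and with pancreatic RNA as a block these became -0.61 ± 0.36 and -0.85 ± 0.35 (limma adjusted p = 0.472 and 0.0807). Between treated genotypes Egf differed by 1.27 ± 0.84 (limma adjusted p = 0.293), and by 0.63 ± 0.36 with that block (limma adjusted p = 0.217). The 6 markers of Brunner's glands, which lie in the duodenal wall and secrete EGF in some species, also followed the pancreatic RNA, with means of 5.85 to 7.26 in arrays holding it and 4.53 to 4.88 in the others. The part of either tissue in the Egf signal was not tested.

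**Figure D2:**
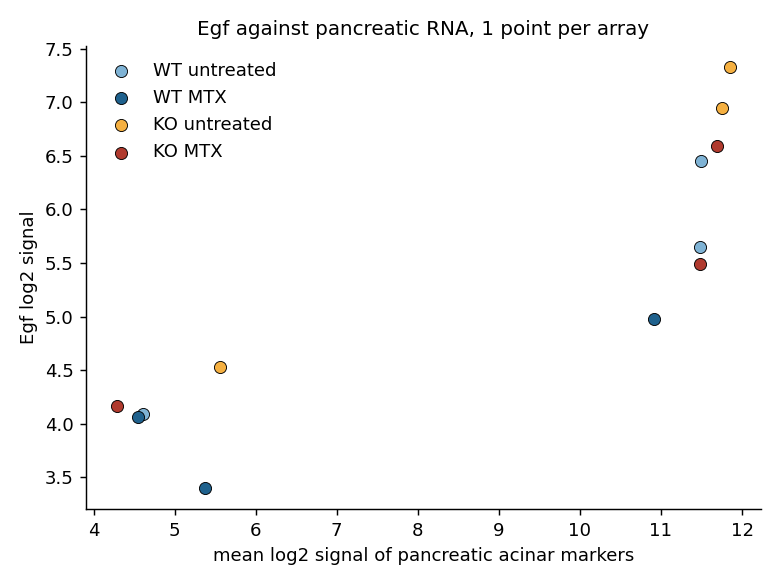
Egf log2 signal (vertical axis) against the mean log2 signal of 11 pancreatic acinar markers (horizontal axis), 1 point per array, coloured by group. The 7 arrays with acinar means above 10 hold all Egf values from 4.98 to 7.33, and the other 5 hold those from 3.40 to 4.53.

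Nrg1 (neuregulin 1, a ligand of Erbb3 and Erbb4 that intestinal stroma is known to make) read 5.48, 5.19 and 5.32 in untreated and 8.86, 8.85 and 8.996 in treated knockout mice. In wild type it read 4.35, 5.23 and 5.23 untreated and 5.10, 5.82 and 5.60 treated. As for Ereg, the treated knockout arrays were tightly grouped above all others. The rise of 3.57 ± 0.24 in knockout mice had an adjusted p of 6.27e-07 in limma's test. In wild type the change was 0.58 ± 0.24 (limma adjusted p = 0.385), and the difference between genotypes was 3.00 ± 0.33 (limma adjusted p = 6.86e-05). Treated knockout exceeded treated wild type by 3.39 ± 0.24 (10.5-fold). Within arrays with and without pancreatic RNA, the rise in knockout mice was 3.67 and 3.39 for Nrg1, and 4.61 and 4.23 for Ereg.

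The other neuregulins, which also bind Erbb3 or Erbb4, are no members of the set. Nrg3 read 2.78 to 2.89 in untreated and 3.22, 3.83 and 3.40 in treated knockout mice, and rose by 0.65 ± 0.14 (limma adjusted p = 0.00328). It was among the dimmest 25% of genes by mean signal, which a filter on dim genes left out, so its level above background is not known. Nrg4, a neuregulin that binds Erbb4, read 3.89 to 4.12 untreated and 3.26, 3.17 and 3.19 treated. It fell by 0.79 ± 0.12 (limma adjusted p = 0.000330). Only 34.1% of genes were lower than Nrg4 in mean signal, so the size of its change is uncertain. Nrg2 changed by -0.06 ± 0.13 (limma adjusted p = 0.778). In wild type 0 of the 4 ligands outside the set passed limma's test, with 0 at an unadjusted p under 0.05.

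The receptors Egfr and Erbb2 moved in opposite directions in knockout mice. Egfr is the receptor of the products of Ereg, Btc, Hbegf, Tgfa and Egf. It read 8.06, 7.53 and 7.50 in untreated and 8.62, 8.89 and 9.11 in treated knockout arrays. In wild type it read 7.29, 7.64 and 7.69 untreated and 7.44, 7.56 and 7.48 treated. All 3 treated knockout arrays were above every other array. Egfr rose by 1.18 ± 0.17 in knockout mice (2.27-fold, limma adjusted p = 0.000268) and changed by -0.05 ± 0.17 in wild type, and the difference was 1.23 ± 0.25 (limma adjusted p = 0.00349). The rise was 1.49 among arrays with pancreatic RNA (2 against 2) and 0.57 between those without it, which are replicate 1 of each group.

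Erbb2 (the shared partner receptor) read 8.95, 8.35 and 8.25 in untreated and 7.19, 6.78 and 6.74 in treated knockout arrays. In wild type it read 8.66, 8.50 and 8.58 untreated and 8.97, 8.43 and 8.80 treated. The treated knockout arrays were below all 9 others. Erbb2 fell by 1.62 ± 0.20 in knockout mice (limma adjusted p = 6.91e-05), changed by 0.15 ± 0.20 in wild type, and the difference was -1.77 ± 0.28 (limma adjusted p = 0.000803). It was also 0.41 ± 0.09 lower in arrays with pancreatic RNA than in those without (limma adjusted p = 0.0358), with -1.54 and -1.77 for methotrexate within these sets of knockout arrays. Of the other receptors, Erbb3, which binds neuregulins and signals through its partners, read 10.62, 9.86 and 9.58 in untreated and 8.42, 8.54 and 8.46 in treated knockout arrays. Erbb3 fell by 1.54 ± 0.24 (limma adjusted p = 0.000393). Erbb4 changed by -0.35 ± 0.15 (limma adjusted p = 0.0967). With pancreatic RNA as a block, both Erbb3 and Erbb4 were called lower. Only 15.5% of genes were lower than Erbb4 in mean signal, and the filter on dim genes left it out, so its level above background is not known. Of the receptors that bind Nrg1, Erbb3 thus fell while Nrg1 rose.

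Errfi1 (the feedback inhibitor of ErbB kinases) read 9.99, 9.56 and 10.26 in untreated and 8.89, 10.17 and 10.33 in treated knockout mice. In wild type it read 9.58, 9.30 and 9.32 untreated and 9.36, 8.996 and 9.61 treated. The spread among treated knockout mice was the widest of the 4 groups, with replicate 1 below every other knockout array. Its change was -0.14 ± 0.33 in knockout mice (limma adjusted p = 0.797) and -0.08 ± 0.33 in wild type (limma adjusted p = 0.937). Treated knockout exceeded treated wild type by 0.48 ± 0.33 (limma adjusted p = 0.318), and by 0.93 ± 0.22 without replicate 1 of the treated knockout (limma adjusted p = 0.00555). The change in knockout mice was 0.34 among arrays with pancreatic RNA and -1.10 between those without.

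**Figure D3:**
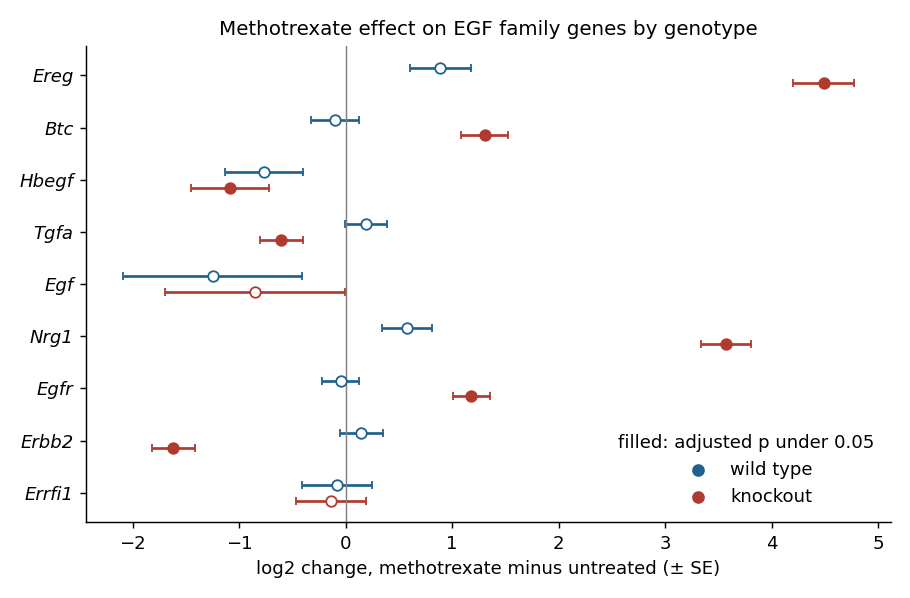
Log2 change with methotrexate (horizontal axis, ± SE) of the 9 genes in wild-type and knockout mice, with filled points where limma's adjusted p was under 0.05. In knockout mice 4 genes are filled to the right of 0 and 3 to the left, and in wild type none is filled.

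RefSeq promoter sequences (build GRCm38.p6) were matched for 7 of the 10 listed genes. The 250 bases before the start are shown for Btc and Egfr, which rose together, for Erbb2, which fell, and for the start of Errfi1, which passed no test, that holds motif matches. The other Errfi1 start in the table holds none of these motifs, and 38% of its bases are G or C, against 64.8% in the window shown. All are written 5′ to 3′ on the gene's strand. Capitals mark matches, on either strand, to the AP-1 motif TGANTCA, the cAMP response element TGACGTCA or the GC box GGGCGG. Of the 3 GC boxes of Errfi1, 2 overlap each other.
Btc, chr5:91402995-91403244, - strand: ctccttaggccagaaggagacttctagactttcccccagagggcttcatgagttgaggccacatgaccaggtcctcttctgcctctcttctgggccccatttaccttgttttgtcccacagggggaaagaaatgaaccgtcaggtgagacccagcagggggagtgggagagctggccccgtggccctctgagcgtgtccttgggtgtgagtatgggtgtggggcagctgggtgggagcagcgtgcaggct
Egfr, chr11:16751953-16752202, + strand: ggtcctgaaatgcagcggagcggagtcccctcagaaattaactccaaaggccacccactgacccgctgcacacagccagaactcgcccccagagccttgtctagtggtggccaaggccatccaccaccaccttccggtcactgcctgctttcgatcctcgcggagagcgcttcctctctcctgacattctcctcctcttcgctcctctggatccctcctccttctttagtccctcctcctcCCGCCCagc
Erbb2, chr11:98412234-98412483, + strand: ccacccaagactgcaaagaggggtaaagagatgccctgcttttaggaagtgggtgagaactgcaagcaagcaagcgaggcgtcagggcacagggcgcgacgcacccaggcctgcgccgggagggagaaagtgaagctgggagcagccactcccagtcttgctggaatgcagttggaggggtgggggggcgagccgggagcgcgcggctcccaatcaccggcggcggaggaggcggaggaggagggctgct
Errfi1, chr4:150854820-150855069, + strand: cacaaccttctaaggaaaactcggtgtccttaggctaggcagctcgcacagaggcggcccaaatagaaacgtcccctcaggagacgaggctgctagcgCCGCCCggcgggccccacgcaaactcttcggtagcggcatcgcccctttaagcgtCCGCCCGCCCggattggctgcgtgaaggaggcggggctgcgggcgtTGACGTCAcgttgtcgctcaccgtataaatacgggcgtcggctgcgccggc
No AP-1 match lies in any of these windows, and 6.75% of all 32851 promoter windows of this length hold one. The Errfi1 window holds the cAMP response element 51 bases before the start, a motif found in 1.55% of all windows, and 3 GC boxes, which 32.7% of all windows hold. Egfr has 1 GC box, and Btc and Erbb2 have none. These are matches of letters and do not show binding.

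Genes of the pathway outside the set were taken from 6 lists by role, with 72 of 79 genes measured. The lists were chosen with earlier results of these data known, so their counts describe these genes and are no independent test. In knockout mice 31 of the 72 rose and 11 fell with methotrexate (all genes: 18.8% and 16.0%), and their median change was 0.22, beside -0.02 over all genes. In wild type 0 of 72 passed limma's test and 3 had an unadjusted p under 0.05. Between treated genotypes 33 were higher and 10 lower in knockout, where 20.2% and 16.8% of all genes were. For the members these counts were 4 higher and 1 lower of 9.

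**Figure D4:**
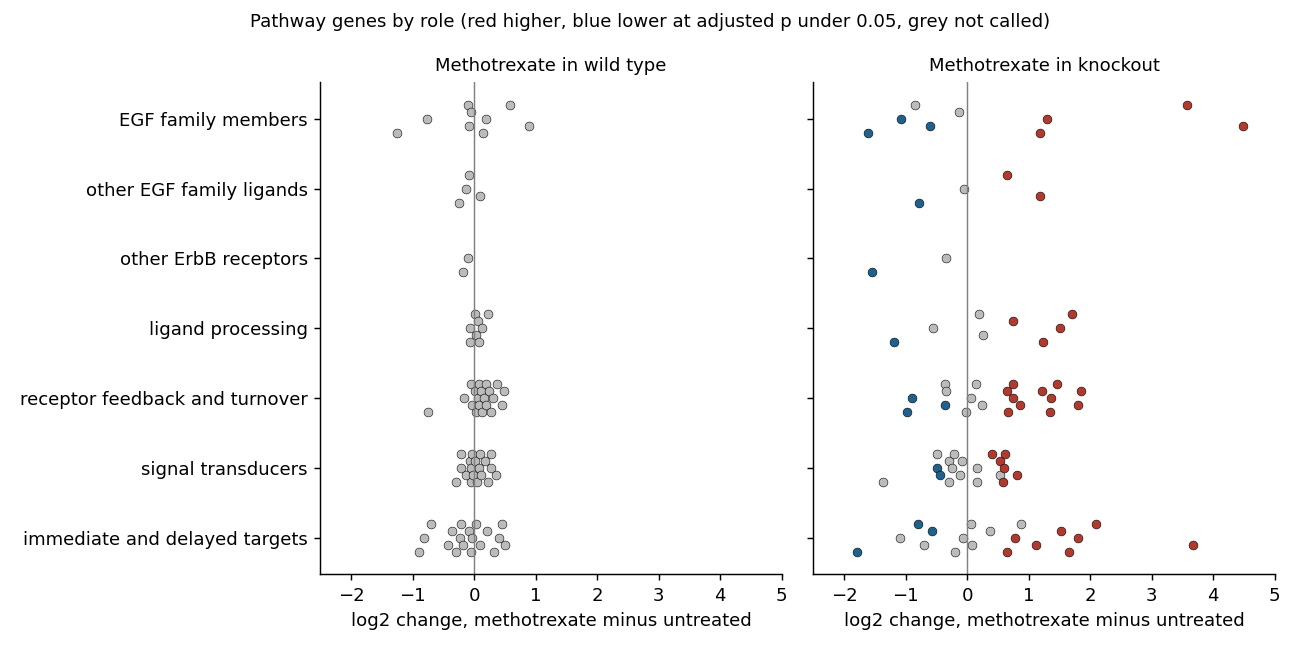
Log2 change with methotrexate (horizontal axis) of the 9 members and 72 further pathway genes, grouped by role, in wild type (left) and knockout (right), with 1 point per gene; vertical offsets within a row carry no value. In wild type no point is coloured as passing the test, whereas in knockout mice coloured points reach from -1.78 to 4.49.

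Ligand processing genes act in the release of the membrane-bound precursors. Of 8 measured genes of ligand processing, 4 rose and 1 fell in knockout mice (all genes: 18.8% and 16.0%). The metalloprotease gene Adam9 read 7.89, 8.09 and 8.18 in untreated and 9.39, 9.74 and 9.56 in treated knockout arrays, a rise of 1.51 ± 0.13. Adam12, another metalloprotease gene, rose by 1.70 ± 0.16 from 3.37 to 3.64 in the untreated arrays to 4.89 to 5.50 in the treated. Frmd8, whose product stabilises the ADAM17 complex at the cell surface, fell by 1.19 ± 0.13. Adam17, the main protease for TGF-alpha, epiregulin and HB-EGF, changed by 0.26 ± 0.21 and Adam10, the main one for betacellulin and EGF, by 0.19 ± 0.12 (limma adjusted p = 0.389 and 0.251). These 2 were named after their values were seen.

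Feedback genes encode proteins that damp or remove active receptors, or restrain the signalling downstream of them. Of 20 genes of receptor feedback and turnover, 11 rose and 3 fell in knockout mice (all genes: 18.8% and 16.0%). Their median was 0.66, and 9 rose and 3 fell without replicate 1 of the treated knockout. Spry4, a Sprouty protein gene that restrains Ras-MAP kinase signalling, read 5.34, 5.32 and 5.76 in untreated and 7.16, 7.08 and 7.60 in treated knockout arrays, a rise of 1.80 ± 0.17 (limma adjusted p = 8.63e-06). Spred3 and Spred1, related inhibitors of the same pathway, rose by 1.85 ± 0.22 and 1.46 ± 0.18. Lrig3, which encodes a membrane protein related to the ErbB inhibitor Lrig1, fell by 0.98 ± 0.18 in knockout mice. It was 1.46 ± 0.18 lower in treated knockout than in treated wild type. Lrig1 itself, named after its values were seen, rose by 0.74 ± 0.16 in knockout mice (limma adjusted p = 0.00330).

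The signal transducers are the kinases and adaptors between receptor and nucleus. Of 19 measured signal transducers, 6 rose and 2 fell in knockout mice (all genes: 18.8% and 16.0%). Their median was -0.08, and none of the 8 called genes changed by 1 or more. The counts fell to 3 and 1 without replicate 2 of the treated knockout and to 4 and 1 without replicate 3 of the untreated knockout. The kinase genes Akt2 and Akt1 rose by 0.61 ± 0.10 and 0.81 ± 0.18, and Ptpn11, a phosphatase gene needed for Ras activation, rose by 0.54 ± 0.11. Map2k2, the gene of a MAP kinase kinase, was 0.70 ± 0.12 lower in treated knockout than in treated wild type. Between treated genotypes 6 were higher and 4 lower (all genes: 20.2% and 16.8%). These counts became 3 and 1 on removing either treated wild-type replicate 3 or treated knockout replicate 2.

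Among 19 measured target genes of the pathway, 8 rose and 3 fell in knockout mice (all genes: 18.8% and 16.0%). Their median was 0.37, and 6 rose and 2 fell without replicate 1 of the treated knockout. Plaur, the urokinase receptor gene, read 4.72, 4.63 and 5.18 in untreated and 7.86, 8.65 and 9.02 in treated knockout arrays, a rise of 3.67 ± 0.25 (limma adjusted p = 8.46e-07). In treated wild type it read 4.56, 4.84 and 4.45. Ier3, an immediate early gene, rose by 2.10 ± 0.15, and Ccnd1, the cyclin D1 gene, by 1.80 ± 0.17. The 3 that fell were Atf3 (-1.78 ± 0.35) and Jun (-0.79 ± 0.26), also immediate early genes, and Vegfa (-0.58 ± 0.21). For Atf3, Jun and Vegfa the wild-type changes were -0.71 ± 0.35, -0.82 ± 0.26 and -0.36 ± 0.21. None of these passed limma's test (adjusted p = 0.451, 0.282 and 0.504). For Jun the change was thus of similar size in both genotypes. These 3 were named after their values were seen. Genes of this list respond to other stimuli as well, and which signal moved them was not tested.

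The genes whose 12 values lay closest to those of a member, after each gene was centred on its own mean, were Plat and Pappa for Ereg, with root mean square differences of 0.41 and 0.45 over a range of 5.56 for Ereg. For Nrg1 they were Slit3 and Vcan (0.27 and 0.29, over a range of 4.65). Tmx4 and Bace1 were closest to Btc (0.14 and 0.15), Foxf2 and Arrdc3 to Egfr (0.13 each), and Mgat3 and Acp6 to Erbb2 (0.12 each). For Hbegf they were Oxct2a and Nudt4 (0.32 and 0.36), and for Tgfa Kif16b and Brwd1 (0.14 each).

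Markers of cell types moved in the same mice as the EGF family genes. Beside the counts below, 18.8% of all genes rose and 16.0% fell in knockout mice with methotrexate. All 12 enterocyte markers fell in knockout mice with methotrexate, with a median of -3.76, from array means of 11.18 to 11.49 down to 5.57 to 8.09. Of 8 pan-epithelial markers 5 fell and 1 rose, median -0.54, with array means of 10.28 to 10.54 after methotrexate, against 10.65 to 11.03 in the other 3 groups. All 10 fibroblast markers rose, with a median of 2.01, from array means of 7.19 to 7.68 up to 9.16 to 9.28. Of the others, 8 of 10 macrophage and monocyte markers rose (median 1.74), as did 7 of 8 endothelial (1.14), 6 of 7 neuronal and glial (0.56), 4 of 7 neutrophil (1.66), 3 of 9 mast cell (0.27) and 1 of 6 Paneth cell markers (-0.20). Smooth muscle had 2 of 8 higher and 1 lower (0.46), Brunner's glands 1 of 6 higher and 2 lower (-0.15), adipocytes 1 of 7 higher and 1 lower (-0.38), and pancreatic acinar cells 0 of 11 by limma, with 0 at an unadjusted p under 0.05 and a median of -0.60. In wild type 0 markers of any list passed limma's test, with 0 to 5 per list at an unadjusted p under 0.05. In whole tissue, fewer cells of a type and less RNA per cell cannot be told apart. The part of these shifts in cell type markers in the changes of the EGF family genes was not tested.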

How the data were processed

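Total RNA of proximal jejunum from 12 mice was labelled with a whole-transcript kit and hybridised to 12 Affymetrix arrays, per the labels' protocols. The log2 values deposited by the authors had been background-corrected, normalised and summarised by RMA, a tool whose version is not given, per the submitters' processing notes. The genome build of the array design is not given in the sources used here. Of 35556 probe sets, 21218 were paired with 1 gene symbol, 1881 with several and 12457 with none. The brightest probe set by mean stood for each of 18820 genes. Groups came from the labels. All 12 arrays were fitted together in limma 3.58.1 (R 4.3.3) with 4 group means and 8 residual degrees of freedom, and p-values were adjusted by Benjamini-Hochberg over all genes. Arrays give no read depth, and their number limits the precision. The fit was tested on simulated data.

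Named genes were all members, lists of 5 or fewer genes in full, and from each longer list up to 3 called genes with the smallest p for methotrexate in knockout and for treated knockout against treated wild type. Genes most like a member had the smallest root mean square difference over 12 arrays, with predicted genes left out. Arrays were said to hold pancreatic RNA where the mean of 11 acinar markers was above 8. Members and lists were chosen with earlier results of these data known.

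Replicate numbers come from the labels, which do not say that a number marks a shared litter, batch or day. Deviations of same-numbered arrays correlated at 0.29 to 0.50 for methotrexate in knockout and 0.50 to 0.67 between untreated genotypes. Every pair of these comparisons thus passed the rule used (over 0.1). For methotrexate in wild type the values were 0.29, 0.53 and -0.49, and between treated genotypes 0.12, 0.25 and -0.15, so 10 of 12 pairs passed 0.1. All changes and p-values printed as results come from the fit without a block, and the replicate block was an alternative. The number goes with pancreatic RNA, absent from every replicate 1. The pairs at -0.49 and -0.15 were those whose arrays differed in pancreatic RNA. The correlations therefore cannot tell a pairing of mice apart from shared pancreatic RNA. Alternatives covered other probe set rules, scalings, filters, variance models, blocks and leaving out each array.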

Additional observations from a re-analysis of the deposited data

Results flagged for a closer look

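The effect of methotrexate differed between knockout and wild-type mice for 21 of the 29 genes named by the rule above, 5 of them members. The test was limma's interaction term with an adjusted p under 0.05, which 23.8% of all genes passed. Most pathway genes were named for a small p in comparisons that share the treated knockout arrays, and over the whole lists 22 of 72 passed. Values are the log2 change in knockout minus that in wild type. Among the ligands these were 3.60 for Ereg, 1.40 for Btc, 3.00 for Nrg1, 1.27 for Epgn, 0.79 for Nrg3 and -0.88 for Nrg4. For the receptors they were 1.23 for Egfr, -1.77 for Erbb2 and -1.35 for Erbb3. Genes of ligand processing gave 1.45 for Adam9, 1.56 for Adam12 and -1.11 for Frmd8. Feedback genes gave 1.56 for Spry4, 1.73 for Spred3, 1.26 for Spred1 and -1.35 for Lrig3. Transducers gave 0.67 for Akt2 and -0.57 for Map2k2, and target genes 3.85 for Plaur, 2.14 for Ier3 and 1.30 for Ccnd1.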

How the results depend on the processing

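Ereg, Btc, Nrg1, Egfr and Erbb2 kept direction and call for methotrexate in knockout and between treated genotypes in all 22 alternatives, and for the difference between genotypes in all 21. Many alternatives could not move a change itself, only its error or adjusted p. For knockout these were the probe set rules, the dim gene filter, the trended robust variance and both blocks. Fitting only the groups compared and leaving out a wild-type array were further ones. Leaving out 1 array gave 5 to 7 members called for methotrexate in knockout, 5 to 6 between treated genotypes, 5 to 6 for the difference, and 0 to 0 in wild type and between untreated genotypes. With array weights, 2 members were called in wild type (Ereg 0.96, Egf -2.24) and 8 between treated genotypes, with Tgfa, Egf and Errfi1 added. That setting also raised the calls over all genes, from 14 to 1819 in wild type and from 6948 to 8962 between treated genotypes. The added members are therefore no result particular to this set. Hbegf in knockout lost its call with array weights (-0.72). The replicate block made Egf between treated genotypes (1.27, limma adjusted p = 0.0310) and Tgfa for the difference pass, and changed no other member's call.

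Signs turned only for changes that passed no test. In wild type these were Btc with pancreatic RNA as a block (0.0195), Errfi1 with array weights (0.0624), and, leaving out 1 array, Tgfa (-0.0364 to 0.43), Btc (-0.30 to 0.0486), Egfr (-0.17 to 0.0288) and Errfi1 (-0.22 to 0.0822). In knockout Errfi1 was 0.31 with array weights and -0.40 to 0.32 leaving out 1 array. Between untreated genotypes Egfr was -0.0509 with array weights, and leaving out 1 array gave -0.0262 to 0.25 for Egfr and -0.28 to 0.0690 for Erbb2. For the difference, Egf was -0.24 with pancreatic RNA as a block, Errfi1 was 0.0881 with quantile normalisation and 0.25 with array weights, and leaving out 1 array gave -0.66 to 0.10 for Hbegf, -0.47 to 1.05 for Egf and -0.32 to 0.40 for Errfi1. The causes were not tested.

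Over all genes, the 14 called in wild type became 0 with median centring, with only the groups compared and with the replicate block, 7 with a log2 change of at least 1 and with a trended robust variance, 34 with pancreatic RNA as a block, 1819 with array weights, and 0 to 97 leaving out 1 array. Requiring a log2 change of at least 1 left 2792 of 6549 in knockout, 3284 of 6948 between treated genotypes and 2845 of 4479 for the difference, which was 7474 with array weights. The 2 between untreated genotypes became 4 with a trended robust variance, 558 with array weights and 1 to 6 leaving out 1 array. The counts per pathway list, the medians over the members under these settings and the values within arrays with and without pancreatic RNA were chosen after the data were seen, and a minimum log2 change of 1 left 6 of 14 feedback genes, 0 of 8 transducers and 7 of 11 targets in knockout.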
